A study of Homo sapiens with 4 samples.

Results

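The data were examined for 9 genes of the system that holds BMP and activin in check outside the cell: NOG, CHRD, GREM1, TWSG1, BMPER, FST, FSTL3, FSTL1 and INHBA. The genes were taken by symbol from a table of 58365 gene rows, and each had exactly 1 row. INHBA is no antagonist: it encodes the subunit from which activin A is built, and it is kept apart below as the ligand of the group. RNA sequencing was done on H1, an established human embryonic stem cell line, at day 2 of a protocol that leads towards blood cells. The DMSO group (2 libraries) had the solvent, and the IWP2 group (2 libraries) had IWP2, a small molecule that blocks Porcupine, the enzyme that attaches the lipid Wnt proteins need for secretion. Both groups were grown in Custom mTeSR1 medium with 40 ng/ml activin A and 50 ng/ml BMP4 by the sample labels. The published methods assign these doses to the factors the other way round, and the dose of IWP2 was not given in the sources used here. Every library thus came from cells given the proteins that these antagonists bind, all from a single cell line. The question of the comparison is what loss of Wnt secretion does to the expression of these genes while mesoderm is being induced.

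BMPs and activins are secreted dimers that bring type I and type II serine/threonine kinase receptors together. BMPs then act through SMAD1, SMAD5 and SMAD9, and activin and NODAL act through SMAD2 and SMAD3. Secreted antagonists bind the ligands before they reach a receptor. Noggin, chordin and gremlin trap BMPs, follistatin binds activin almost irreversibly, and twisted gastrulation and BMPER (crossveinless-2) bind both BMPs and chordin and can hinder or help signalling. In the gastrulating embryo such proteins are made by the streak and the organizer and shape the gradients that pattern mesoderm.

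Relative depth was read from the most common ratio between libraries of the low values of the same genes. That takes the most common case to be 1 read against 1 read. The depth of the 4 libraries ran from 0.808 to 1 of that of IWP2 replicate 1. Summed FPKM (a read level scaled to gene length and library size) ran from 616418 to 653850 and does not measure library size. The replicates differed in MT-ATP8, at 33374 and 9279 FPKM in DMSO replicates 1 and 2. With IWP2 it was at 26236 and 11660 FPKM, so replicate 1 was the higher in both groups. Wnt target genes checked the treatment: 11 of 13 fell and 0 rose with IWP2, while 8.44% of all tested genes fell. T and CDX2 of this list also stand in the mesoderm and amnion marker lists below, so the check is not independent of them. The markers fixed for primitive streak and mesoderm were present in DMSO, with a summed level of 926 and 1146 FPKM, against 86.2 and 86.9 FPKM with IWP2, and 7 of 7 fell. The pluripotency markers moved the other way, from 774 and 581 to 1924 and 1907 FPKM (2 of 3 rose). The endoderm markers summed to 185 and 122 FPKM in DMSO and to 83.8 and 99.6 FPKM with IWP2, with 2 of 3 lower. The neural list fell from 57.2 and 61.9 to 2.27 and 3.02 FPKM, nearly all of it OTX2, with SOX1 under 0.1 FPKM in every library. The amnion and trophoblast list, 7 of whose 8 names had a row, summed to 103 and 85.7 FPKM in DMSO and to 134.5 and 140.8 FPKM with IWP2, with 2 higher and 1 lower of 6 tested. The 4 endothelial and blood markers summed to less than 1 FPKM in each library, and PTPRC was at 0 in 3 of 4. These marker levels moved with the groups compared below, and their part in the changes was not tested. In such bulk samples, fewer cells of a type and less RNA per cell cannot be told apart.

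BMPER and FST were lower with IWP2, and the NOG values of the groups overlapped. BMPER fell from 66.7 ± 10.6 to 2.10 ± 0.644 FPKM (mean ± SD, n = 2 in each group), a 31.7-fold lower mean. FST fell from 55.0 ± 4.61 to 14.4 ± 0.841 FPKM, a 3.82-fold lower mean. No other member passed the test. Of the 9 genes, 7 reached the mean level of 1 FPKM over the 4 libraries that was asked of a gene to be tested, and 2 of these 7 were called, both lower. Called means an adjusted p under 0.05 in limma, fitted over all 14022 genes that passed the same filter. Among all of these, 15.2% were called, 8.44% lower and 6.75% higher with IWP2. With 7 genes, 2 calls do not set the group apart from that background. As a description, the size of the change does separate BMPER and FST from most others. Of tested genes, 99.9% changed less than BMPER and 97.7% less than FST. The 1 added to FPKM before the log shrinks changes at low levels, so these ranks depend in part on level. The median log2 difference of the 7 was -0.31, beside -0.02 for all tested genes. With 2 libraries against 2, an exact permutation test of a single gene cannot give a p under 0.333, so all calls rest on the spread that limma shares between genes.

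**Figure D1:**
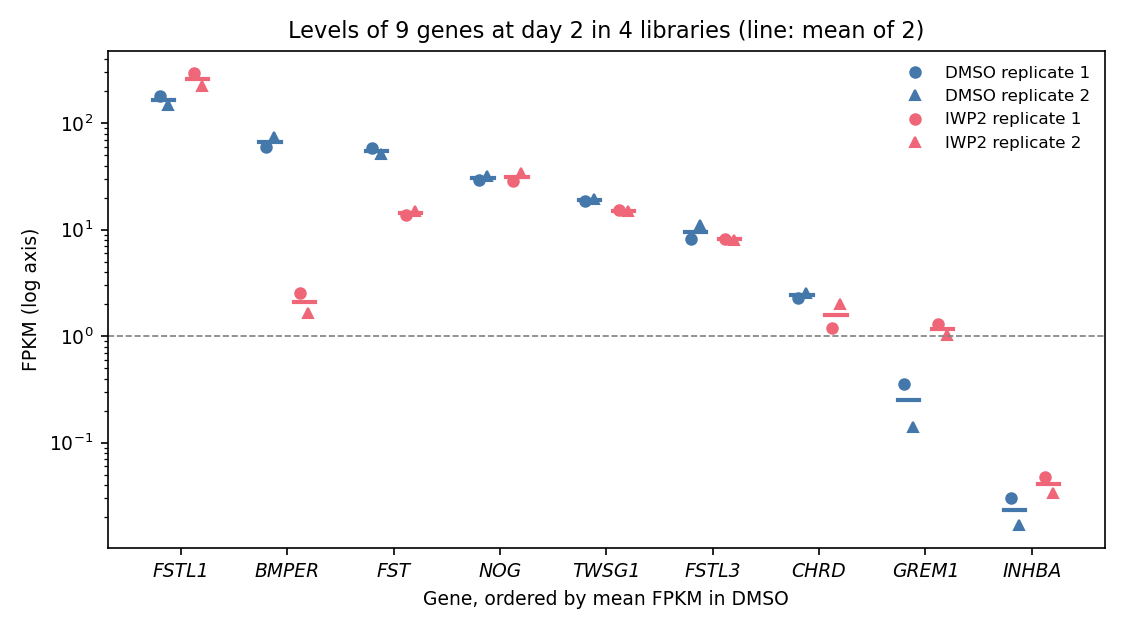
FPKM of the 9 genes (log axis) in each of the 4 libraries, with circles for replicate 1, triangles for replicate 2, a line for the mean of 2, blue for DMSO and red for IWP2, and the dashed line at 1 FPKM. BMPER drops from 59.2 and 74.2 to 2.56 and 1.65 FPKM and FST from 58.2 and 51.7 to 13.8 and 15.0 FPKM, while the points of NOG and FSTL3 overlap between groups.

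Among the BMP traps, NOG was the most abundant and the steadiest. NOG encodes noggin, which covers the receptor-binding faces of BMPs. NOG (chr17:56593699-56595590, GRCh38, plus strand, a gene of 1 exon) stood at 29.3 and 31.8 FPKM in DMSO and at 28.4 and 34.4 FPKM with IWP2. The groups overlapped, with both the lowest and the highest value in IWP2 libraries. The log2 difference was 0.03, with a 95% interval from -0.28 to 0.34 (limma adjusted p = 0.894). The interval does not reach the size of the changes of FST or BMPER.

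CHRD encodes chordin, the large BMP trap of the organizer, which tolloid proteases cut to release its ligand. CHRD (chr3:184380073-184390736, plus strand) was low, at 2.31 and 2.55 FPKM in DMSO and 1.19 and 2.00 FPKM with IWP2. Both IWP2 values lay below both DMSO values, but the IWP2 libraries differed from each other by 1.69-fold. The log2 difference of -0.42 ± 0.21 (SE) did not pass the test (limma adjusted p = 0.263).

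GREM1 encodes gremlin 1, a DAN-family trap of BMP2, BMP4 and BMP7. GREM1 (chr15:32717974-32745107, plus strand) was at 0.357 and 0.141 FPKM in DMSO and at 1.29 and 1.03 FPKM with IWP2. Every IWP2 value was above every DMSO value, by at least 2.89-fold, at levels where few reads stand behind a value. Its mean of 0.705 FPKM over all libraries was under the filter, so the main fit gave it no test. With the filter lowered to 0.1 FPKM the log2 difference was 0.79 ± 0.17 (SE), and the limma adjusted p was 0.0579. The 1 added to FPKM before the log shrinks differences at such levels, so this value understates the 4.66-fold ratio of the means.

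TWSG1 encodes twisted gastrulation, which binds BMPs together with chordin and can either strengthen the trap or speed its cleavage. TWSG1 (chr18:9334767-9402420, plus strand) gave 18.7 and 19.4 FPKM in DMSO and 15.3 and 14.9 FPKM with IWP2. The replicates were close, 1.04-fold apart in DMSO and 1.02-fold with IWP2, and the groups did not overlap. The log2 difference was -0.31 ± 0.09 (SE), with a 95% interval from -0.55 to -0.08 and a limma adjusted p of 0.0869. It was therefore not called, and its size was unremarkable, since 63.7% of tested genes changed less.

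BMPER encodes a secreted protein with chordin-like von Willebrand factor C domains, made in mesoderm and endothelium, that binds BMP2, BMP4 and chordin. BMPER (chr7:33904911-34155872, plus strand, 16 exons in its longest coding transcript) was measured at 59.2 and 74.2 FPKM in DMSO and at 2.56 and 1.65 FPKM with IWP2. The lowest DMSO value was 23.1 times the highest IWP2 value. On the log2(FPKM + 1) scale the difference was -4.45 ± 0.19 (SE), with a 95% interval from -4.94 to -3.97 (limma adjusted p = 0.000436). In DMSO BMPER stood above 90.1% of tested genes, and with IWP2 above 14.8%. Likeness to BMPER was taken as the smallest root mean square difference of centred log2 values over the 4 libraries. The most alike genes were PLXNA2 (0.05), LGR5 (0.14) and CNKSR3 (0.15). All were called lower, which the choice by likeness to BMPER nearly ensured. PLXNA2 gave 45.8 and 58.7 FPKM in DMSO and 2.02 and 1.20 FPKM with IWP2.

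FST encodes follistatin, which wraps activin and some BMPs and hides their receptor sites. FST (chr5:53480409-53487134, plus strand) gave 58.2 and 51.7 FPKM in DMSO and 13.8 and 15.0 FPKM with IWP2. The lowest DMSO value was 3.45 times the highest IWP2 value, and replicates differed by 1.13-fold in DMSO and 1.09-fold with IWP2. The log2 difference was -1.86 ± 0.10 (SE), with a 95% interval from -2.13 to -1.60 (limma adjusted p = 0.000847). Unlike BMPER, FST stayed well expressed with IWP2, above 60.3% of tested genes. No gene of the 9 was called higher, so no genes are named for likeness to a rising member.

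FSTL3, follistatin-like 3, shares the follistatin domains and also binds activin. FSTL3 (chr19:676365-683399, plus strand) gave 8.14 and 11.1 FPKM in DMSO and 8.22 and 7.97 FPKM with IWP2. The groups overlapped, and the log2 difference of -0.21 ± 0.16 (SE) was not called (limma adjusted p = 0.449). The ratio of FST to FSTL3 within a library went from 7.16 and 4.66 in DMSO to 1.68 and 1.88 with IWP2. The 2 activin-binding members thus came closer in level, with FST still the higher in each library.

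FSTL1 belongs to the SPARC-related branch of follistatin-domain proteins and has been described as a BMP4 antagonist. FSTL1 (chr3:120392293-120451253, minus strand) was the most abundant member in every library, at 182 and 149.9 FPKM in DMSO and at 294 and 225 FPKM with IWP2. Both IWP2 values were above both DMSO values, with replicates 1.22-fold and 1.31-fold apart. The log2 difference was 0.64 ± 0.16 (SE), with a 95% interval from 0.22 to 1.05, and it missed the threshold (limma adjusted p = 0.0628). With libraries centred on a common median it passed (limma adjusted p = 0.0453), so the call depends on the settings of the fit. FSTL1 overlaps a pseudogene on the opposite strand, AC063952.1, which was at 1.80 and 1.54 FPKM in DMSO and at 4.83 and 4.63 FPKM with IWP2. The library kit does not keep the strand, so reads of the pair cannot be told apart where they overlap. The row of MIR198, which lies within FSTL1, was at 0 in every library.

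INHBA encodes the beta A subunit, 2 copies of which make activin A. INHBA (chr7:41667168-41705834, minus strand) was nearly silent, at 0.0300 and 0.0168 FPKM in DMSO and at 0.0477 and 0.0334 FPKM with IWP2. These values are far under the filter, and no fold is drawn from them. The beta B subunit gene INHBB was as low, between 0 and 0.0497 FPKM. Activin A was thus present in the medium of all libraries, while transcripts of either subunit were barely detected in the cells.

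**Figure D2:**
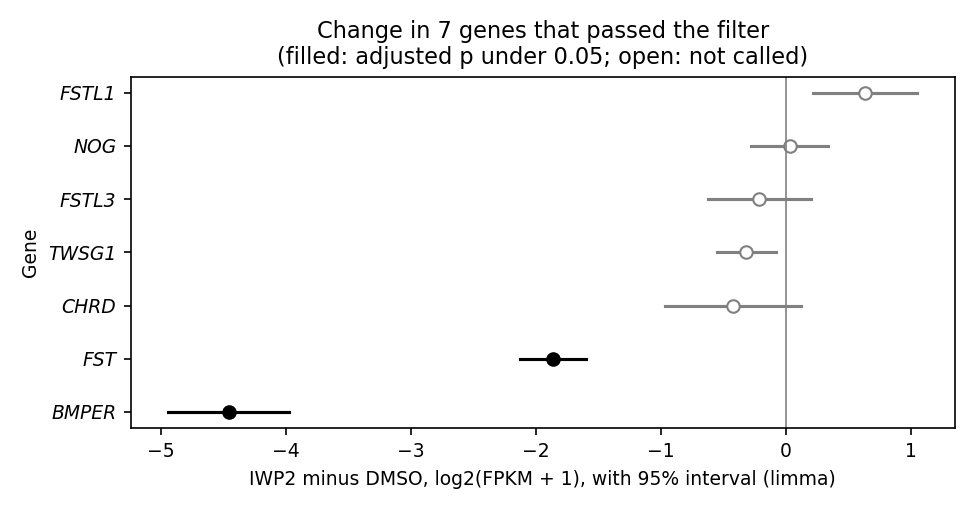
Difference between IWP2 and DMSO on the log2(FPKM + 1) scale for the 7 genes that passed the filter, with limma's 95% interval as a line, filled points for genes with an adjusted p under 0.05 and open points for the others. BMPER at -4.45 and FST at -1.86 lie far left of 0, and the intervals of NOG, FSTL3 and CHRD cross 0.

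Across the members, the order of levels changed with IWP2. In DMSO it ran FSTL1, BMPER, FST, NOG, TWSG1, FSTL3, CHRD, GREM1 and INHBA by mean FPKM. No neighbours in that order overlapped between replicates, although BMPER and FST came within 1.02-fold of each other. With IWP2 it ran FSTL1, NOG, TWSG1, FST, FSTL3, BMPER, CHRD, GREM1 and INHBA. There the replicate values overlapped for TWSG1 and FST, for BMPER and CHRD, and for CHRD and GREM1, so the order within these pairs is not settled. Counting all tested members, 5 of 7 had groups that did not overlap, beside 59.8% of all tested genes, a share too close to read anything from the count.

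The summed level of the 8 antagonist genes hardly differed between the groups, while its make-up did. The sum was 358.5 and 340.9 FPKM in DMSO and 365 and 302 FPKM with IWP2. Without FSTL1, the sum of the other 7 was 176 and 191 FPKM in DMSO against 70.8 and 76.99 FPKM with IWP2. The share of BMPER in the 8 went from 16.5% and 21.8% to 0.701% and 0.546%. That of FST went from 16.2% and 15.2% to 3.78% and 4.97%. The share of FSTL1 was the one that grew most, with 50.8% and 44.0% in DMSO and 80.6% and 74.5% with IWP2. Shares within a library do not depend on scaling between libraries, but a share can rise when others fall. NOG gives a steadier yardstick: BMPER was 2.02 and 2.33 times NOG in DMSO and 0.0901 and 0.0479 times NOG with IWP2, and FST went from 1.99 and 1.62 to 0.486 and 0.436 times NOG. These sums and ratios are descriptions and carry no test.

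**Figure D3:**
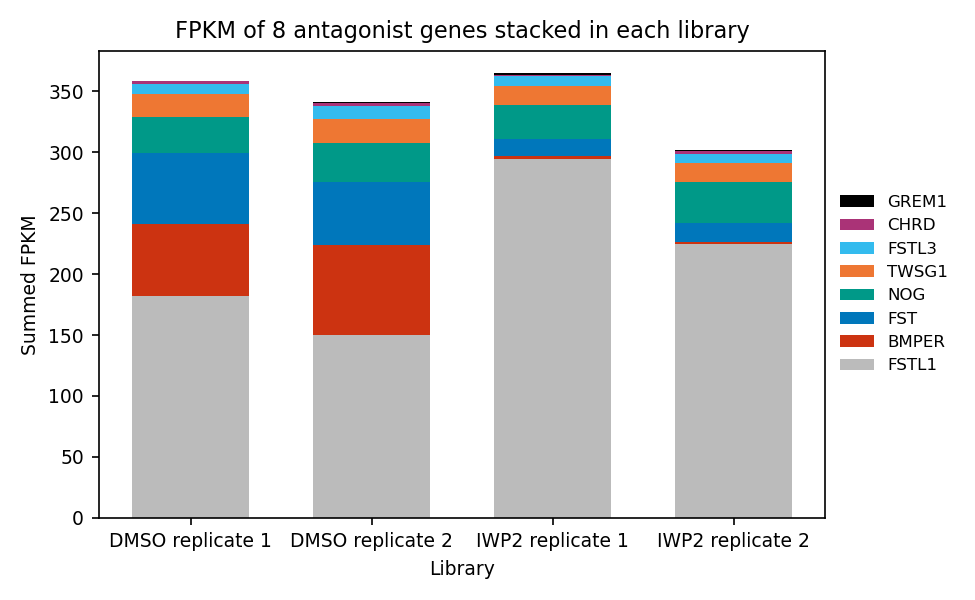
Stacked FPKM of the 8 antagonist genes, 1 bar for each library, with the colours of the genes in the legend. The bars reach 358.5, 340.9, 365 and 302 FPKM, and the BMPER and FST blocks shrink with IWP2 while the FSTL1 block at the base grows.

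The promoters of BMPER, FST and FSTL1 are shown because the shares of these genes in the sum changed most. RefSeq gave 10 promoter windows on GRCh38.p14 for 8 of the 9 genes, each from 250 bases before to 50 after a start site, and none for NOG. Motifs were searched on both strands: CTTTGAA or CTTTGAT or CTTTGTA or CTTTGTT for the core bound by TCF and LEF, GGCGCC for BMP SMADs and GTCTAG for SMAD2 and SMAD3. The SMAD names here are only labels of the searches. They do not tie a motif to a single branch, and binding of any SMAD was not tested. No 2 of these matches overlapped in the windows printed. The windows are chr7:33904665-33904964 on the plus strand for BMPER, chr5:53480379-53480678 on the plus strand for FST and chr3:120450943-120451242 on the minus strand for FSTL1, with motif matches in capitals.

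BMPER: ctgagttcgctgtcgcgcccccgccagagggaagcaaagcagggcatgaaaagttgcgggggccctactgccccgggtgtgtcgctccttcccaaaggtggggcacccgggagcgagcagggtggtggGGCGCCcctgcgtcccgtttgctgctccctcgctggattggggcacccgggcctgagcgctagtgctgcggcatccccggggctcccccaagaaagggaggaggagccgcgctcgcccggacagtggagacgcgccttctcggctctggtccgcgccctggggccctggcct

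FST: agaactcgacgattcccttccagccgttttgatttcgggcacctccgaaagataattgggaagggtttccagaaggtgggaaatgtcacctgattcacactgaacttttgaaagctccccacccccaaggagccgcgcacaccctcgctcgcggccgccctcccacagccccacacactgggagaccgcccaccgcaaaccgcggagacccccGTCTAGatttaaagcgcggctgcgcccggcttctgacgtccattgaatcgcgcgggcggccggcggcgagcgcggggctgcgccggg

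FSTL1: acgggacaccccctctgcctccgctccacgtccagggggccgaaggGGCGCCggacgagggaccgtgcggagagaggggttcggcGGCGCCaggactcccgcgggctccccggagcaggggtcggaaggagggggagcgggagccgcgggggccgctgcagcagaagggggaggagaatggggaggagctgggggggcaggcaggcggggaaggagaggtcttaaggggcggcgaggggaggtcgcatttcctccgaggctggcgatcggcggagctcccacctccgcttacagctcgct

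The capitals in BMPER and FSTL1 are GGCGCC, 122 bases before the start site in BMPER and 204 and 165 before it in FSTL1. A second BMPER window at chr7:33905289-33905588, not printed, holds GGCGCC 123 and 59 bases before its start site. Windows of CHRD, GREM1 and FSTL3 held GGCGCC too, so it was not limited to the genes called. GGCGCC was found in 19.2% of all 35116 promoter windows. The printed windows of BMPER and FSTL1 were 71.3% and 73.7% G or C, against a median of 58.7% over all windows. That share is therefore not a like comparison for a motif made only of G and C. The window of FST has a GTCTAG 37 bases before the start site, a match that 5.87% of all windows hold. A TCF/LEF core, present in 13.8% of all windows, was found in none of these 3 windows, and among all 10 only in that of INHBA. A match of letters is a description, and its absence from 300 bases says nothing on sites elsewhere.

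The further antagonists and related proteins, not all of them secreted or antagonists, fell into a few strongly expressed genes and many near 0. Of 21 genes in this list, 12 were tested: 3 were lower, 1 was higher and 8 were not called. The median log2 difference was -0.11. Beside this list and those below, 8.44% of all tested genes were called lower and 6.75% higher, with a median of -0.02. CER1 encodes cerberus, which binds BMP, NODAL and Wnt proteins, and fell from 1612 and 2048 FPKM to 38.6 and 34.2 FPKM (limma adjusted p = 0.000186). In DMSO this single gene was several times the summed level of the 8 antagonists above. LEFTY1, an inhibitor of NODAL, fell from 97.0 and 57.1 to 13.6 and 13.3 FPKM (limma adjusted p = 0.00481). KCP, a chordin-like protein that enhances BMP signalling, fell from 3.64 and 4.49 to 1.31 and 1.13 FPKM (limma adjusted p = 0.0122). CHRDL1, a chordin-like BMP binder, was the gene that rose, from 1.11 and 1.19 to 4.05 and 3.31 FPKM (limma adjusted p = 0.0141). TMEFF1, a membrane protein with follistatin domains, was the highest of those not called, at 41.5 and 45.4 FPKM in DMSO and 37.4 and 39.6 FPKM with IWP2. Without IWP2 replicate 1, and likewise without IWP2 replicate 2, CER1 was the only gene of the list called.

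The genes that cut chordin or hold antagonists in the matrix are proteases, glypicans, syndecans and other proteoglycans. Of 13, 11 were tested, 4 were higher and 1 was lower, with a median log2 difference of 0.51. GPC4, a glypican that carries heparan sulfate, rose from 32.8 and 33.4 to 136 and 145 FPKM (limma adjusted p = 0.000358). AGRN, the heparan sulfate proteoglycan agrin, rose from 47.0 and 41.8 to 72.0 and 64.6 FPKM (limma adjusted p = 0.0199). GPC3 rose from 10.9 and 9.02 to 16.7 and 14.4 FPKM and SDC1, a syndecan, fell from 23.3 and 22.7 to 15.7 and 17.3 FPKM, both close to the threshold (limma adjusted p = 0.0475 and 0.0366). SDC4 was the highest of those not called, at 44.0 and 44.4 FPKM in DMSO and 37.1 and 39.1 FPKM with IWP2. With any 1 library left out, 1 to 3 genes of the list were higher and 0 were lower.

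BMP2 and BMP4, which BMPER binds, fell too. Of 14 ligand genes 7 were tested, 2 lower and 2 higher, and the median log2 difference was 0.11. BMP2 fell from 101 and 122 to 4.55 and 4.52 FPKM (limma adjusted p = 0.000186). The ratio of BMP2 to BMPER within a library was 1.71 and 1.64 in DMSO and 1.78 and 2.74 with IWP2. BMP4 fell less, from 171 and 193 to 68.8 and 66.0 FPKM (limma adjusted p = 0.00135), and its ratio to BMPER went from 2.89 and 2.60 to 26.9 and 40.1. BMP7 rose from 3.51 and 3.96 to 11.4 and 9.58 FPKM (limma adjusted p = 0.00573), and GDF3, a NODAL-related ligand, rose from 5.29 and 6.52 to 11.7 and 13.9 FPKM (limma adjusted p = 0.0131). NODAL itself was not called, at 12.2 and 6.07 FPKM in DMSO and 9.02 and 9.81 FPKM with IWP2. Without IWP2 replicate 1, and likewise without IWP2 replicate 2, the 2 lower calls stood and 0 higher calls did.

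Of 11 receptor genes 9 were tested, with 3 lower, 2 higher and a median log2 difference of -0.26. ACVRL1, the endothelial type I receptor ALK1, fell from 3.73 and 4.16 to 0.295 and 0.305 FPKM (limma adjusted p = 0.00342). TDGF1, the NODAL co-receptor, fell from 203 and 221 to 103 and 98.6 FPKM (limma adjusted p = 0.00262). ACVR2A, an activin type II receptor, fell from 5.89 and 7.44 to 3.12 and 3.07 FPKM (limma adjusted p = 0.0200). BMPR1A, the BMP type I receptor, and BAMBI, a decoy receptor, rose by a log2 difference of 0.49 and 0.46, near the threshold (limma adjusted p = 0.0404 and 0.0405), and neither call stood when any 1 library was left out. The lower calls of the receptor list numbered 1 without IWP2 replicate 1 and 0 without IWP2 replicate 2. BMPR2 was the highest of those not called, at 14.5 and 14.6 FPKM in DMSO and 13.2 and 11.7 FPKM with IWP2.

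Of 10 target genes of the BMP branch (SMAD1 and SMAD5) 3 rose and 3 fell, with a median log2 difference of -0.16. ID1, an inhibitor of bHLH factors, rose from 789 and 644 to 1772 and 2137 FPKM (limma adjusted p = 0.00463), and ID4 rose from 31.3 and 31.2 to 73.4 and 76.7 FPKM (limma adjusted p = 0.00133). ID3 rose by a log2 difference of 1.01 (limma adjusted p = 0.0209). MSX1, a homeobox factor, fell from 36.3 and 29.6 to 1.04 and 1.23 FPKM (limma adjusted p = 0.000301), and HAND1, a bHLH factor of mesoderm, fell from 234 and 322 to 101 and 119 FPKM (limma adjusted p = 0.00981). SMAD6, an inhibitory SMAD, fell by 0.81 on the log2 scale (limma adjusted p = 0.0103). The published study places HAND1 downstream of TGF-beta signalling at a later stage, so its place in this list is not exclusive. ID2 was the highest not called, at 113 and 136 FPKM in DMSO and 161 and 176 FPKM with IWP2 (limma adjusted p = 0.0665), and it passed with libraries centred on a common median (limma adjusted p = 0.0479). Without IWP2 replicate 1, and likewise without IWP2 replicate 2, 1 gene of this list was higher and 1 was lower.

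Of 10 target genes of the activin and NODAL branch (SMAD2 and SMAD3) 8 fell and 0 rose, with a median log2 difference of -2.90. CER1 and LEFTY1, given above, are in this list too. EOMES, MIXL1 and FOXA2, which also fell, are in the mesoderm or endoderm marker lists as well. The count is therefore not separate from the fall of those markers. The organizer homeobox genes LHX1 and GSC fell to under 0.5 FPKM, LHX1 from 31.2 and 47.3 FPKM (limma adjusted p = 0.000635) and GSC from 18.8 and 31.4 FPKM (limma adjusted p = 0.00109). LEFTY2 was the highest not called, at 54.4 and 29.6 FPKM in DMSO and 22.6 FPKM in both IWP2 libraries. With any 1 library left out, 5 to 9 genes of the list were lower.

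The Wnt targets had a median log2 difference of -1.79. SP5, a transcription factor induced by beta-catenin, fell from 53.2 and 47.0 to 0.379 and 0.363 FPKM (limma adjusted p = 0.000186). LGR5, the R-spondin receptor, fell from 21.5 and 27.8 to 0.105 and 0.0763 FPKM (limma adjusted p = 0.000301). DKK1, a secreted Wnt antagonist, fell from 30.1 and 25.4 to 0.200 and 0.919 FPKM (limma adjusted p = 0.00102). ZNRF3 was the highest not called, at 5.66 and 5.97 FPKM in DMSO and 7.04 and 6.49 FPKM with IWP2. Without IWP2 replicate 1, as without IWP2 replicate 2, 6 of the 13 were called lower.

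**Figure D4:**
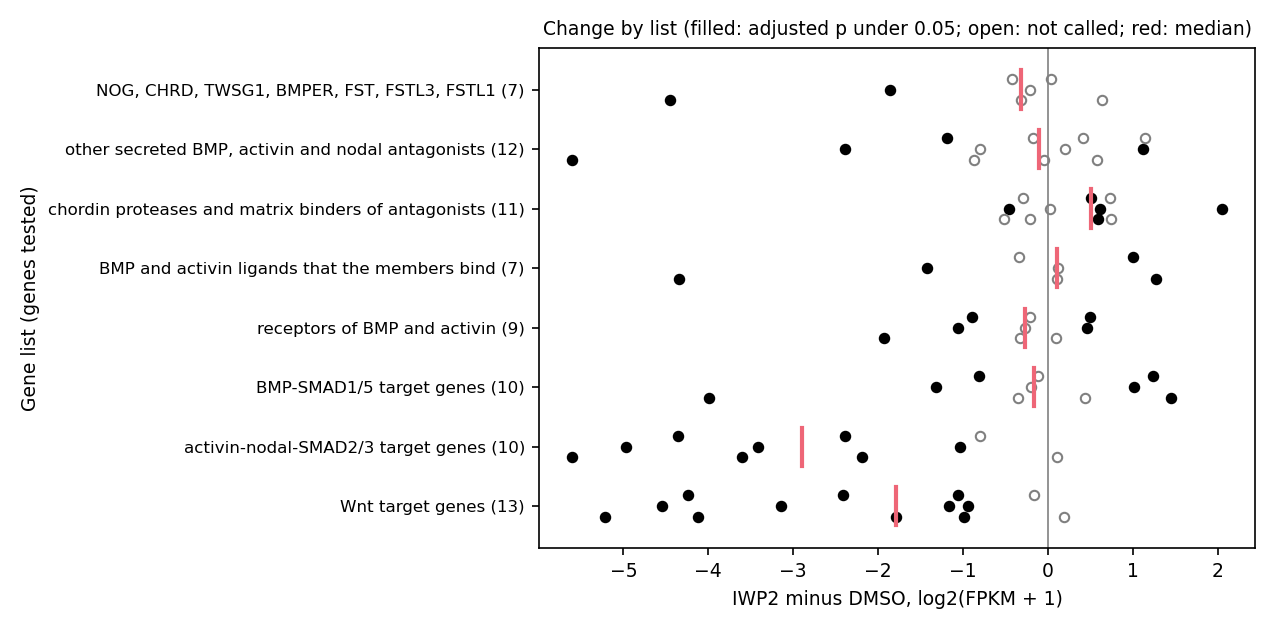
Difference between IWP2 and DMSO on the log2(FPKM + 1) scale for each tested gene of the members and of 7 further lists, 1 list a row with the number of genes tested, filled points for an adjusted p under 0.05, open points for the rest and a red bar for the median. The SMAD2/3 and Wnt targets lie mostly left of 0, with medians of -2.90 and -1.79, while the SMAD1/5 targets and the antagonists spread to either side or near 0. CER1, LEFTY1, LEFTY2 and NODAL each stand in 2 lists.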

How the data were processed

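Total RNA from H1 cells was made into libraries with the Illumina TruSeq RNA kit, 1 library per sample. The authors deposited a table of FPKM values, 1 column per sample. BWA, Bowtie, RSEM and the build hg19 are named in the submitters' processing notes without roles or versions. The gene coordinates in the table are nevertheless on GRCh38, since 56597 of 58365 rows match GENCODE 29 once 1 is added to the start. No counts were used, so counting errors are unknown. Columns were matched to samples by name, with "+IWP2" read as IWP2 and "-IWP2", without the inhibitor, as the DMSO group, and DMSO replicate numbers are those of the column names. Values were taken as log2(FPKM + 1), genes with a mean of at least 1 FPKM over the 4 libraries were kept, and IWP2 was compared with DMSO with limma 3.58.1 (R 4.3.3, intensity trend, two-sided, Benjamini-Hochberg over 14022 genes). The script was tested on simulated data with independent normal noise for each gene, without counting noise or shared replicate effects. All 9 genes are named. From each further list, up to 3 called genes in each direction with the largest change and the highest gene not called are named. The members and lists were chosen with earlier results of these data known. Nothing in the labels says that the replicates came from separate cultures, so p-values measure only the spread between these libraries. Alternatives were another pseudocount, filter, scaling or prior, the replicate block and leaving out each library.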

Additional observations from a re-analysis of the deposited data

How the results depend on the processing

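BMPER and FST were called lower under all 11 alternatives, with log2 differences from -4.95 to -4.24 and from -1.94 to -1.78 and limma adjusted p values of at most 0.0345. CHRD, TWSG1 and FSTL3 were called under none. FSTL1 was called with median centring (0.70, limma adjusted p = 0.0453) and with the replicate block (0.64, limma adjusted p = 0.0139), and its adjusted p reached 0.253 without IWP2 replicate 1. NOG changed sign, from -0.10 to 0.17, and NODAL, from -0.35 to 0.56, as single libraries were left out, neither being called. The number of genes called, 2129 (946 higher, 1183 lower), dropped to 381 (118 higher, 263 lower) with no filter on low values. It was 1375 without DMSO replicate 1, 1129 without DMSO replicate 2, 294 without IWP2 replicate 1 and 238 without IWP2 replicate 2, with 58 to 657 higher and 180 to 718 lower. In these fits the lone library of a group was assumed to vary like the others. Of 28 called genes named from the further lists, 0 changed direction and 17 lost the call under at least 1 alternative. Of 7 named but not called, 2 gained a call under at least 1: ID2 with median centring and with the replicate block (limma adjusted p = 0.0479 and 0.0368), and LEFTY2 without DMSO replicate 2 (limma adjusted p = 0.0174). The titles number the replicates, but 2 pairs cannot show that the numbers pair the samples. Over genes, the deviations of same-numbered libraries had a Pearson correlation of 0.152, and the replicate block gave 1927 calls. edgeR and DESeq2 were not run, since the table holds no counts. Depth is known only as a ratio between libraries, so the low values of GREM1 and INHBA have no counting interval.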

Other observations

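Several antagonists of the wider list were close to silent at day 2. Of the 21 genes, 6 stayed under 0.1 FPKM in all 4 libraries, among them SOST, which encodes sclerostin, and DAND5, a NODAL antagonist of the left-right organizer. Among the untested genes above that level, TMEFF2 was at 0.585 and 0.510 FPKM in DMSO and at 0.0805 and 0.117 FPKM with IWP2. SOST, DAND5 and TMEFF2, like SOSTDC1 below, were chosen after their values were seen. SOST, DAND5 and TMEFF2 had no test. SOSTDC1, a BMP and Wnt antagonist, differed between the DMSO replicates, at 2.76 and 0.824 FPKM, against 4.81 and 4.80 FPKM with IWP2, and was not called (limma adjusted p = 0.0947).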
